A study of Homo sapiens with 4 samples.

Results

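The integrated stress response was followed through 37 genes chosen by name, namely the kinases that phosphorylate the translation factor eIF2, the subunits of eIF2 and of its exchange factor eIF2B, the subunits that direct eIF2 dephosphorylation, the transcription factors ATF4 and CHOP with their relatives, and target genes of these factors. All 37 were found by symbol, each once, among the 61806 genes of the table. RNA had been measured in JJ012, a human chondrosarcoma cell line, and in 143B, a human osteosarcoma cell line, both kept in suspension, that is, without attachment to a matrix. For each line there was 1 library of untreated cells and 1 library of cells given 1 mM melatonin, with 72 h stated for the treatment, and detached culture was shared by treated and untreated cells. The comparison asks how melatonin altered gene expression in detached bone cancer cells. Columns named with the line alone were taken as untreated and those with the suffix T as melatonin-treated.

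Levels are given as FPKM, the counts of a gene divided by its exonic length and the total counts of the library. Log2 fold changes compare melatonin with control after adding 1 FPKM to both, a scale that understates the changes of low genes. Genes that reached 1 FPKM in either library of a line were assessed in that line. "Rose" and "fell" are used for log2 fold changes of 0.58 or more in size, the fold threshold of the study's methods, and for nothing smaller. With 1 library per condition, no difference could be set against the spread between cultures and no test was made. The ratio of CPM (counts scaled to the library total, without regard to gene length) is given with its exact 95% interval, which covers counting error only.

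When a cell runs short of amino acids, accumulates unfolded protein in the endoplasmic reticulum or has damaged mitochondria, a kinase phosphorylates eIF2. General translation then falls, while the mRNA of ATF4 is translated better owing to short open reading frames ahead of its coding sequence. ATF4 and its partners of the C/EBP family raise genes of amino acid uptake and synthesis and of tRNA charging, and CHOP, encoded by DDIT3, joins them when stress persists. Since phosphorylation and translation are the regulated steps, mRNA levels report on the output of the pathway more than on its trigger.

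The libraries held between 15889564 and 19218343 counts, so that the floor of 3 counts lay between 0.156 and 0.189 CPM. The share of counts from the mitochondrial genome was 6.78% and 4.35% in control and treated JJ012, and 1.63% and 2.46% in control and treated 143B. In JJ012, the log2 fold change of protein-coding genes followed exonic length, with a Spearman correlation of 0.40 over 11534 genes, while over the 34 assessed members the correlation was -0.014. Single members still depended on the trend. With it removed, 13 of the 17 members past the threshold in JJ012 still passed, and 3 others did. The cartilage markers ACAN, COL2A1 and COL9A1 were at no more than 0.11 FPKM in any library. SOX9 had 15.06 and 6.16 FPKM in control and treated JJ012 and 15.48 and 12.09 FPKM in 143B. COL11A2 had 1.67 and 0.61 FPKM in JJ012 and 0.52 and 0.55 FPKM in 143B. Both SOX9 and COL11A2 thus fell in JJ012. Over the 6 cartilage markers listed, the sums were 17.68 and 7.13 FPKM in JJ012 and 16.77 and 13.05 FPKM in 143B. Of the bone markers, SP7 and IBSP were at no more than 0.13 FPKM and RUNX2 lay between 2.59 and 4.28 FPKM. Markers of other cell types were low, and lower in sum with melatonin in JJ012, with 13.17 against 5.45 FPKM for 3 leukocyte genes, 2.32 against 0.08 FPKM for 3 epithelial genes and 1.92 against 0.79 FPKM for 2 endothelial genes. Most of the leukocyte sum was CD3E, at 9.73 and 3.28 FPKM, while PTPRC was at no more than 0.14 FPKM in any library. In 143B the same sums were 0.83 and 1.2, 1.43 and 0.85, and 2.40 and 2.04 FPKM, and CD3E was at 0. Their part in the results was not tested, and in bulk RNA fewer cells of a type and less RNA per cell cannot be told apart.

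In JJ012, 14 of the 34 assessed members rose with melatonin and 3 fell. The background was high in this line, since 38.2% of all assessed genes passed the threshold, 19.6% higher and 18.6% lower, and of the protein-coding genes 17.8% rose and 16.1% fell. The median log2 fold change was 0.40 over the assessed members and 0.39 over all 37, against 0.01 over all assessed genes. The summed share of counts held by the members was 0.318% in control and 0.475% in treated JJ012. By counting error alone, the CPM interval lay above 1 for 23 of the 34 and below 1 for 9. The shares were 36.9% and 35.2% of all assessed genes, and 42.1% and 38.2% of the protein-coding ones. The genes that rose were DDIT3, KLHL24, CTH, XPOT, CLIC4, STC2, TRIB3, CEBPG, PPP1R15B, ATF3, PPP1R15A, CEBPB, EIF2AK3 and EIF2S1, and those that fell were EIF4EBP1, VLDLR and JDP2. ASNS, CBS and SLC6A9 were under 1 FPKM in both JJ012 libraries.

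In 143B, 2 of the 34 assessed members rose and 3 fell, against 6.09% and 6.65% of all assessed genes (12.7% in either direction), and 3.48% and 2.60% of the protein-coding ones. ATF5 and CHAC1 rose, and DDIT3, CEBPB and ATF3 fell. The median log2 fold change of the assessed members was 0.04, beside 0.03 for all assessed genes. The members held 0.543% of all counts in control and 0.522% in treated 143B. The CPM interval lay above 1 for 14 of the 34 and below 1 for 12. The shares were 28.4% and 23.5% of all assessed genes, and 33.6% and 25.7% of the protein-coding ones. JDP2, NUPR1 and SLC6A9 stayed under 1 FPKM in both 143B libraries.

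DDIT3, CEBPB and ATF3 thus rose in one line and fell in the other, and no member rose in both lines, fell in both, or fell in JJ012 and rose in 143B. The shares of all genes with these last patterns were 1.16%, 1.34% and 0.914%, and of protein-coding genes 0.51%, 0.836% and 0.53%. Of the 32 members assessed in both lines, those 3 make up 9.38%, and 1.16% of the 11822 genes assessed in both lines rose in JJ012 and fell in 143B (0.245% of the protein-coding ones). By counting error alone, 12 of the 32 had an interval above 1 in JJ012 and below 1 in 143B, beside 11.0% of all genes, 6 had the opposite pattern, beside 10.5%, 7 were above 1 in both lines, beside 14.2%, and none was below 1 in both, beside 8.48%. Of the protein-coding genes, 12.1%, 11.7%, 16.2% and 9.17% had these patterns, in the same order. The intervals of the lines did not overlap for 27 of the 32, beside 59.0% of all genes and 65.0% of the protein-coding ones. Among the 14 genes that rose in JJ012, 11 had an interval wholly below 1 in 143B, beside 26.1% of all genes that rose in JJ012 and were assessed in both lines, and 28.6% of the protein-coding ones. Over the 32 members the log2 fold changes of the lines had a Spearman correlation of -0.54, a description across genes that are not independent replicates, and over 9811 protein-coding genes it was 0.0078. The lines share no library, and the difference between them was not tested.

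**Figure D1:**
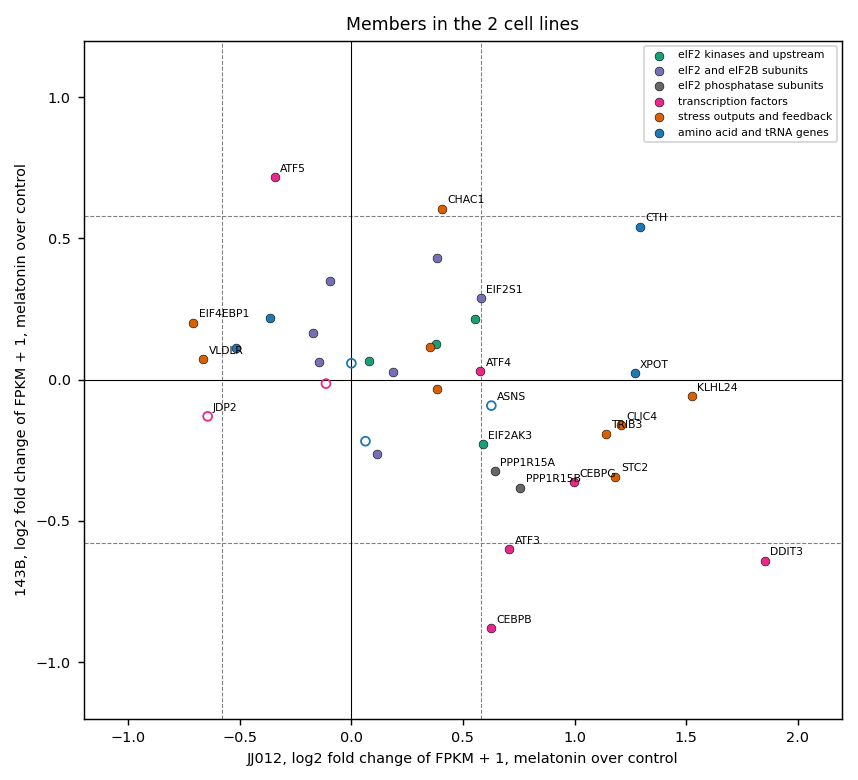
Each point is a member, with its log2 fold change of FPKM + 1, melatonin over control, in JJ012 on the x axis and in 143B on the y axis, coloured by role; dashed lines mark 0.58 in either direction and open points were under 1 FPKM in both libraries of a line. DDIT3, CEBPB and ATF3 lie to the right of the JJ012 threshold and below the 143B threshold, and no point lies beyond the thresholds in the upper right or lower left corner.

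ATF4, the bZIP factor at the centre of the response, had 135.49 FPKM in the JJ012 control, 202.61 FPKM in melatonin-treated JJ012, 345.50 FPKM in the 143B control and 352.52 FPKM in melatonin-treated 143B. It was thus abundant everywhere, most of all in 143B, where it ranked 69 and 71 among all genes by FPKM, against 203 and 74 in JJ012. Its log2 fold change of 0.577 in JJ012 lay just under the threshold, and passed it with a pseudocount of 0.1 FPKM (0.58), with the length trend removed (0.785) and from TPM (0.855), which is FPKM rescaled to the same sum in each library. By CPM, ATF4 was 1.495-fold higher (95% interval 1.45 to 1.54) in JJ012, and the interval in 143B, 0.997 to 1.04, included 1.

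DDIT3 encodes CHOP, which follows ATF4 and turns on genes of protein synthesis and cell death under lasting stress. It had 44.23 FPKM (1111 counts) in control and 162.32 FPKM (3425 counts) in treated JJ012, with 17.53 FPKM (364 counts) in control and 10.88 FPKM (244 counts) in treated 143B. Treated JJ012 was the highest of the 4 libraries, and both JJ012 values stood above both 143B values. The log2 fold change of 1.85 in JJ012 was exceeded by 0.286% of the assessed protein-coding genes. CPM ratios were 3.67 (95% interval 3.43 to 3.93) in JJ012 and 0.621 (0.526 to 0.732) in 143B. DDIT3 overlaps MARS1, the methionyl-tRNA synthetase gene, on the other strand, and the strand setting of the counting is not given in the sources used here. MARS1 had 2272 and 2790 counts in JJ012 and 720 and 1035 counts in 143B. Its counts thus moved the same way as those of DDIT3 in JJ012 and the opposite way in 143B. The part of the overlap was not tested.

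CEBPB and CEBPG encode C/EBP proteins that bind as partners of ATF4. CEBPB had 48.84 and 75.92 FPKM in control and treated JJ012 and 64.99 and 34.85 FPKM in control and treated 143B. Its CPM was 1.56-fold higher (1.46 to 1.66) with melatonin in JJ012 and 1.87-fold lower (1.73 to 2.01) in 143B, so that the order of the lines turned over. CEBPG had 13.39 and 27.73 FPKM in JJ012 and 22.51 and 17.28 FPKM in 143B, and its log2 fold changes were 0.997 and -0.36. ATF3, an early stress-induced repressor and activator of the same bZIP class, had 2.13 and 4.11 FPKM (165 and 268 counts) in JJ012 and 3.35 and 1.87 FPKM (215 and 130 counts) in 143B. The log2 fold changes of ATF3 were 0.71 and -0.60.

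The other 3 factors did not share this pattern. ATF5, itself translated better under eIF2 phosphorylation and tied to mitochondrial stress, had 2.72 and 1.93 FPKM (151 and 90 counts) in JJ012 and 1.02 and 2.32 FPKM (47 and 115 counts) in 143B. Its log2 fold change was 0.72 in 143B and -0.34 in JJ012, and it overlaps NUP62 and IL4I1 on the other strand. JDP2, a repressor that binds AP-1 and CRE sites, fell in JJ012, with 2.11 and 0.99 FPKM (254 and 100 counts), 2.13-fold lower by CPM (1.69 to 2.72), while 143B had 63 and 53 counts. NUPR1, a small stress-induced chromatin protein, separated the lines and not the treatments. It had 1856 and 1433 counts in JJ012, or 17.53 and 16.12 FPKM, and 1 and 0 counts in 143B, and its log2 fold change in JJ012 was -0.11.

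Promoters of the members were read to see whether genes that moved together carry the same letters, using RefSeq sequences on GRCh38.p14 from 250 bases before to 50 bases after each annotated start. Sequences were present for 32 of the 37 members, with none for NUPR1, EIF4EBP1, PYCR1, EIF2AK1 and EIF2S2. The letters TGATGNAA, core of the composite element bound by C/EBP and ATF4, were searched on both strands, as were TGACGTCA, the cyclic AMP response element, and the ER stress response element. The first motif occurred for 6 of the 32 genes, beside 4.46% of 27305 genes with a promoter, the second for 1, beside 2.25%, and the third for none, beside 0.0916%. No member held both of the first motifs, so that no matches overlapped. The matches follow as 30 bases each, read 5′ to 3′ on the strand of the gene, with the motif in capitals.
ASNS, minus strand, chr7:97872458-97872487: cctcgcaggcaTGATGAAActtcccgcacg
ATF3, plus strand, chr1:212565205-212565234: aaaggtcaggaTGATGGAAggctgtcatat
CEBPG, plus strand, chr19:33374060-33374089: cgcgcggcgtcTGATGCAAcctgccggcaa
CHAC1, plus strand, chr15:40953251-40953280: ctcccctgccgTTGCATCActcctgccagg
JDP2, plus strand, chr14:75427995-75428024: atagccggggcTGATGCAAcccgtcccgcc
PPP1R15B, minus strand, chr1:204412026-204412055: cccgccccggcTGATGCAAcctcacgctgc
PPP1R15A, plus strand, chr19:48872352-48872381: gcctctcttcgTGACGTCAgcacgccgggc

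In CHAC1 the match lies on the opposite strand, and in PPP1R15A the capitals mark the cyclic AMP response element. Counted from the annotated start, the first base of the motif lay at -68 in ASNS, -42 in CEBPG, -16 in JDP2, -191 in ATF3, -209 in CHAC1, -227 in PPP1R15B and -58 in PPP1R15A. Of the 6 genes with TGATGNAA, ATF3, CEBPG and PPP1R15B rose in JJ012, JDP2 fell, and CHAC1 did not pass the threshold, with a log2 fold change of 0.41. In 143B, ATF3 fell, CHAC1 rose, and CEBPG and PPP1R15B had log2 fold changes of -0.36 and -0.38. ASNS was under 1 FPKM in both JJ012 libraries, and its log2 fold change in 143B was -0.09. JDP2 was under 1 FPKM in both 143B libraries. DDIT3, TRIB3, CTH and XPOT, among the largest rises, had no match in this window, which says nothing of elements farther away.

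Among the eIF2 kinases, PERK rose in JJ012. PERK, encoded by EIF2AK3, senses unfolded protein in the endoplasmic reticulum, and had 1.34 and 2.52 FPKM (534 and 841 counts) in JJ012 and 1.74 and 1.34 FPKM (572 and 476 counts) in 143B. The log2 fold change was 0.59 in JJ012, and 0.20 once the trend with exonic length was removed, its exonic length of 20691 bases being the longest of the members. GCN2, encoded by EIF2AK4 and activated by uncharged tRNA, had 6.16 and 9.51 FPKM in JJ012 and 3.82 and 4.59 FPKM in 143B, with log2 fold changes of 0.55 and 0.21, both under the threshold. In JJ012 its CPM ratio was 1.54 (1.44 to 1.66), and its log2 fold change passed from CPM (0.62), from TPM (0.87) and with a pseudocount of 0.1 FPKM (0.62), but was 0.20 with the length trend removed. HRI, encoded by EIF2AK1, which senses heme and relays mitochondrial stress, was the most abundant kinase of the 3 in each library, with 42.74 and 55.82 FPKM in JJ012 and 23.26 and 25.46 FPKM in 143B. The log2 fold change of EIF2AK1 in JJ012 was 0.38, and 0.66 from TPM, past the threshold. OMA1, the mitochondrial protease upstream of HRI, had 5.74 and 6.13 FPKM in JJ012 and 1.18 and 1.28 FPKM in 143B, and its CPM interval included 1 in both lines. Of the 4 genes of this group 25.0% passed in JJ012, beside 38.2% of all assessed genes. No kinase passed the threshold in 143B, where 12.7% of all assessed genes did.

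Of the 7 subunit genes of eIF2 and eIF2B, EIF2S1 rose in JJ012, and none passed in 143B. That is 14.3% in JJ012, beside 38.2% of all assessed genes there and 12.7% in 143B. EIF2S1 encodes the alpha subunit that carries the phosphorylated serine, and had 25.74 and 39.01 FPKM in JJ012 and 29.23 and 35.94 FPKM in 143B. Its log2 fold change of 0.581 in JJ012 was barely over the threshold, and was 0.50 with the length trend removed. EIF2S2, the beta subunit, was the most abundant of the 7 in every library, from 80.60 to 131.56 FPKM. The eIF2B genes, which reload eIF2 with GTP, had log2 fold changes between -0.17 and 0.38 in JJ012 and between -0.26 and 0.43 in 143B. EIF2B3 was the highest of these in both lines, with 204 and 240 counts in JJ012 and 52 and 96 counts in 143B. It passed in 143B with a pseudocount of 0.1 FPKM (0.72), from CPM (0.63) and from TPM (0.61), and in JJ012 from TPM (0.71).

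PPP1R15A and PPP1R15B encode GADD34, the stress-induced subunit, and CReP, the constitutive subunit, that bring protein phosphatase 1 to eIF2. PPP1R15A had 28.20 and 44.58 FPKM in JJ012 and 95.85 and 76.37 FPKM in 143B. PPP1R15B had 8.84 and 15.63 FPKM in JJ012 and 34.54 and 26.27 FPKM in 143B. Both rose in JJ012, by 0.64 and 0.76 on the log2 scale (0.81 and 0.46 with the length trend removed). In 143B both were under the threshold, at -0.32 and -0.38, with CPM intervals wholly below 1. After melatonin the 143B levels still stood above those of JJ012.

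**Figure D2:**
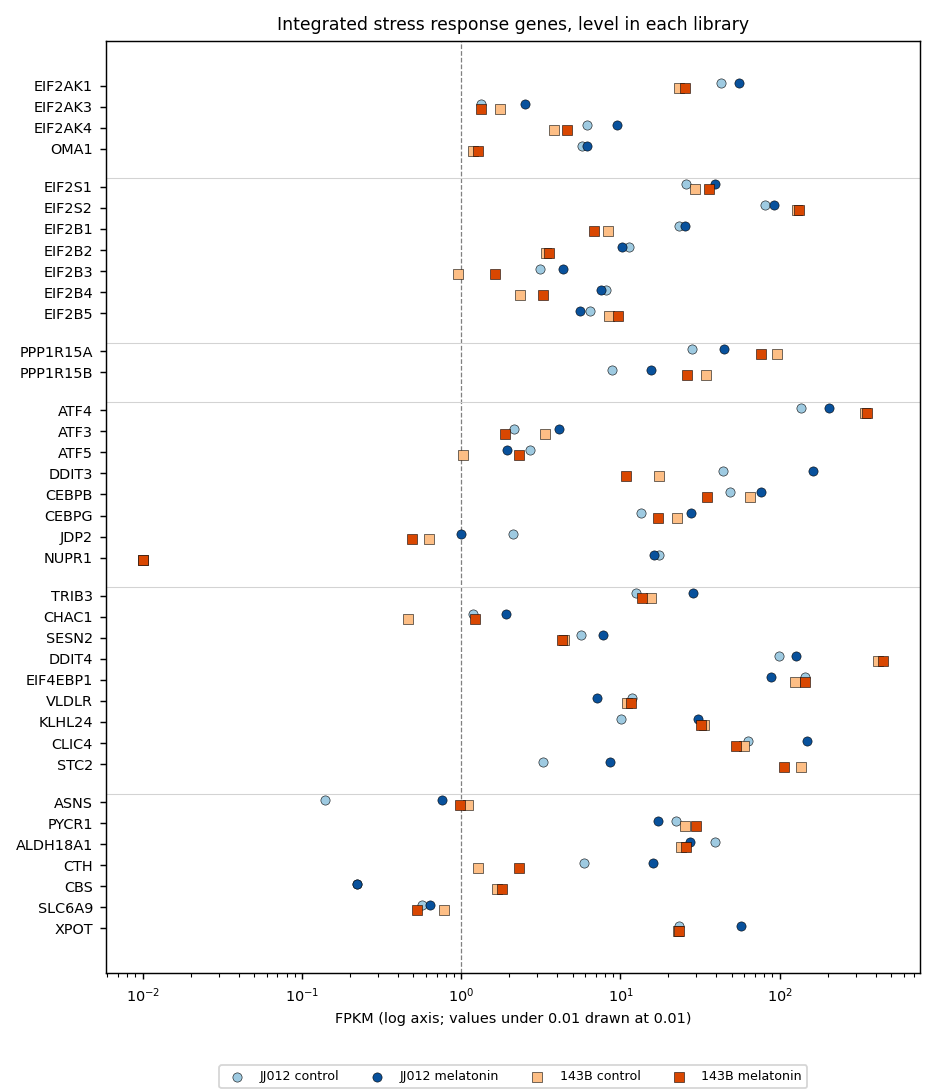
FPKM of each member on a log axis in the 4 libraries, JJ012 as circles and 143B as squares, pale for control and dark for melatonin, with members ordered by role and 1 FPKM dashed. NUPR1 is drawn at the left edge in 143B and lies between 16.12 and 17.53 FPKM in JJ012, and the JJ012 melatonin circle of DDIT3 stands apart from its 3 other points.

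Stress outputs and feedback genes rose in JJ012 for TRIB3, KLHL24, CLIC4 and STC2 and fell for EIF4EBP1 and VLDLR. Of the 9 genes of this group 66.7% thus passed, beside 38.2% of all assessed genes. In 143B 11.1% passed, beside 12.7%. TRIB3, a pseudokinase that CHOP and ATF4 induce and that restrains both, had 12.43 and 28.59 FPKM in JJ012 and 15.64 and 13.58 FPKM in 143B. Its CPM in the JJ012 control was 1.26-fold lower (1.14 to 1.39) than in the 143B control, a log2 difference in FPKM of -0.31 that passed the threshold with the length trend removed (-0.92), from TPM and after centring. It was 2.30-fold higher (2.11 to 2.51) by CPM with melatonin in JJ012 and 1.15-fold lower (1.04 to 1.27) in 143B. KLHL24, a substrate adaptor of a cullin ubiquitin ligase, had 10.02 and 30.73 FPKM in JJ012 and 33.41 and 32.03 FPKM in 143B. The JJ012 control was therefore the single low library for KLHL24, and the treated JJ012 cells came near to the level of 143B. Its log2 fold change of 1.53 was second to that of DDIT3 among the members.

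STC2, a secreted glycoprotein induced by PERK signalling, had 3.24 and 8.63 FPKM (315 and 705 counts) in JJ012 and 135.85 and 106.79 FPKM (10927 and 9279 counts) in 143B. The rise in JJ012, 2.66-fold by CPM (2.33 to 3.05), left it far below either 143B library. CLIC4, a chloride intracellular channel protein that moves to the nucleus under stress, had 63.55 and 147.89 FPKM in JJ012 and 59.98 and 53.52 FPKM in 143B. Its log2 fold changes were 1.21 and -0.16.

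EIF4EBP1 encodes 4E-BP1, a repressor of cap-dependent translation and a known ATF4 target, and it fell in JJ012. It had 144.51 and 88.06 FPKM in JJ012 and 124.51 and 143.26 FPKM in 143B. By CPM it was 1.64-fold lower (1.53 to 1.76) with melatonin in JJ012 and 1.15-fold higher (1.08 to 1.23) in 143B. The log2 fold change of -0.71 in JJ012 was -0.44 from TPM and -0.39 with the length trend removed, both short of the threshold. VLDLR, a lipoprotein receptor induced by ATF4, had 11.89 and 7.14 FPKM in JJ012 and 11.00 and 11.62 FPKM in 143B. Its log2 fold change of -0.66 in JJ012 was -0.45 from TPM and -0.997 with the length trend removed.

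CHAC1, SESN2 and DDIT4 did not pass the threshold in JJ012, with log2 fold changes of 0.41, 0.39 and 0.35, but all 3 passed from TPM (0.81, 0.69 and 0.63), and CHAC1 and DDIT4 also with the length trend removed (0.77 and 0.72). CHAC1 passed with a pseudocount of 0.1 FPKM as well (0.63). CHAC1, which degrades glutathione, had 47 and 63 counts in JJ012 and 15 and 43 counts in 143B, or 1.19, 1.9, 0.46 and 1.22 FPKM. It rose in 143B with a log2 fold change of 0.61, and 2.65-fold by CPM with a wide interval of 1.45 to 5.14. The log2 fold change was 0.58 after centring on the median gene and 0.52 with the length trend removed, both short of the threshold. SESN2, a leucine-sensing inhibitor of mTORC1, had 5.67 and 7.71 FPKM in JJ012 and 4.44 and 4.32 FPKM in 143B. DDIT4, another mTORC1 inhibitor that also answers to low oxygen, had 99.37 and 127.05 FPKM in JJ012 and 413.38 and 447.59 FPKM in 143B, where it ranked 48 and 47 among all genes.

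In the amino acid and tRNA group, CTH and XPOT rose in JJ012 and none of the 6 assessed genes passed in 143B. CTH, which makes cysteine from cystathionine, had 5.91 and 15.93 FPKM (274 and 621 counts) in JJ012 and 1.28 and 2.32 FPKM (49 and 96 counts) in 143B. It was higher with melatonin in both lines by CPM, 2.70-fold (2.34 to 3.12) in JJ012 and 1.81-fold (1.27 to 2.61) in 143B, and the log2 fold change of 0.54 in 143B was short of the threshold, which it passed with a pseudocount of 0.1 FPKM (0.81), from CPM (0.69) and from TPM (0.71). XPOT, the exporter of tRNA from the nucleus, had 23.22 and 57.37 FPKM in JJ012 and 22.93 and 23.29 FPKM in 143B. The controls and treated 143B had similar levels, and treated JJ012 stood alone.

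The proline synthesis enzymes moved the other way in JJ012, short of the threshold. ALDH18A1, which makes the proline precursor from glutamate, had 39.30 and 27.17 FPKM in JJ012 and 23.89 and 25.90 FPKM in 143B. PYCR1, which completes proline, had 22.36 and 17.15 FPKM in JJ012 and 25.60 and 29.94 FPKM in 143B. Their log2 fold changes were -0.52 and -0.36 in JJ012, with CPM intervals below 1, and 0.11 and 0.22 in 143B, with intervals above 1.

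ASNS, the asparagine synthetase gene and a textbook ATF4 target, had few counts in JJ012, 13 and 60 in control and treated cells, or 0.14 and 0.76 FPKM. In 143B it had 86 and 82 counts, or 1.11 and 0.98 FPKM. By CPM it was 5.49-fold higher (2.98 to 10.9) with melatonin in JJ012, the largest ratio of the members, from few counts and below the limit of 1 FPKM. Its log2 fold change on the FPKM scale was 0.63. On the same strand ASNS overlaps an unnamed transcript, with 27 and 15 counts in JJ012 and 72 in each 143B library. ASNSP1, a pseudogene copy, held 39 and 210 counts in JJ012, so that the counts of ASNS are uncertain. CBS, which makes cystathionine, had 29 and 24 counts in JJ012 and 181 and 209 counts in 143B, and the reference genome holds a near-identical copy of it, so that its counts are uncertain. SLC6A9, a glycine transporter, had between 48 and 65 counts in every library, and its intervals included 1 in both lines.

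**Figure D3:**
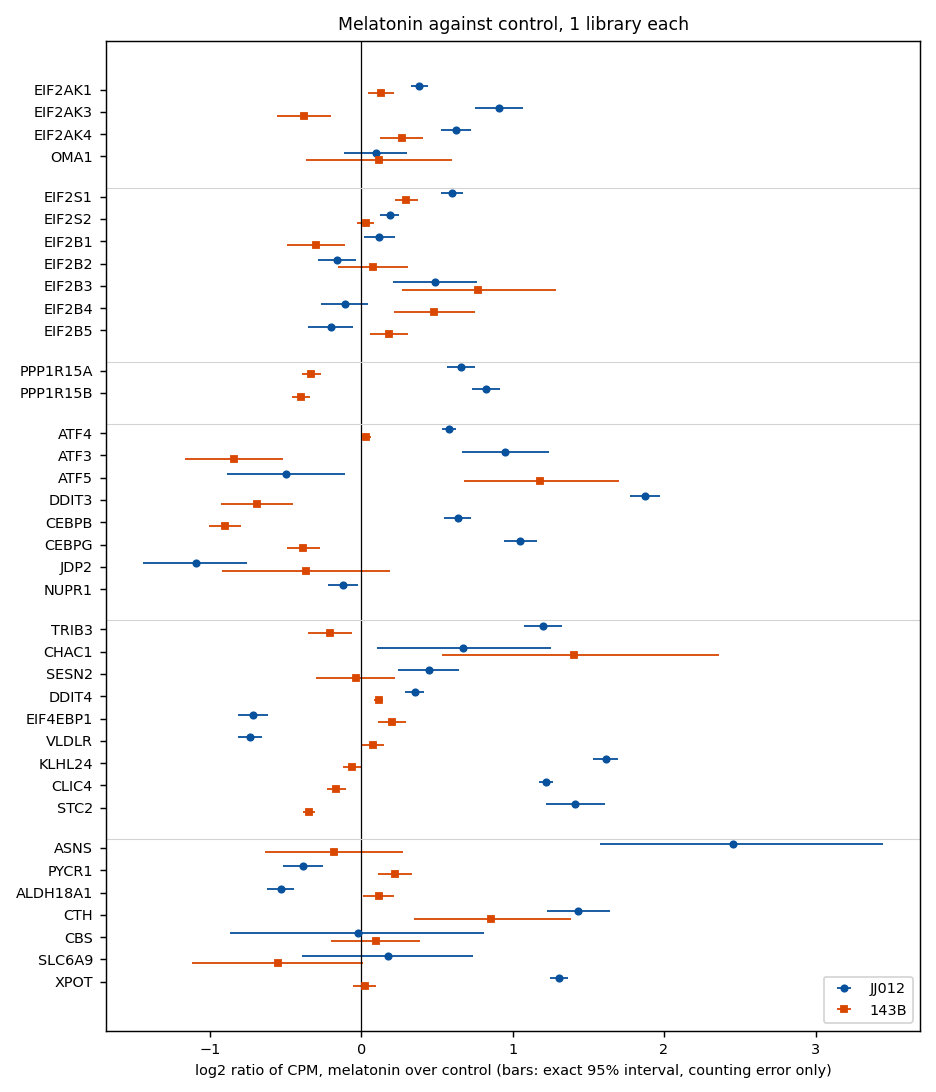
The log2 ratio of CPM, melatonin over control, is drawn for each member in JJ012 (circles) and 143B (squares), with bars for the exact 95% interval, which covers counting error only; NUPR1 in 143B is not drawn because the treated library had 0 counts. For 12 members the interval lies above 0 in JJ012 and below 0 in 143B. They are DDIT3, CEBPB, ATF3, CEBPG, PPP1R15A, PPP1R15B, STC2, CLIC4, TRIB3, KLHL24, EIF2AK3 and EIF2B1.

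The untreated lines also differed in these genes before any treatment. Between the 2 controls, 13 of the 36 assessed members were higher in JJ012 and 10 higher in 143B by the same threshold, against 41.3% and 27.4% of all assessed genes (68.7% in either direction) and 39.6% and 25.1% of the protein-coding ones. Of the members 63.9% passed, near the background. The CPM interval lay above 1 for 18 of the 36 and below 1 for 17. The shares were 50.8% and 35.1% of all assessed genes, and 53.6% and 37.6% of the protein-coding ones. Of the passing members, 56.5% were higher in JJ012, and 34.8% once the trend with exonic length was removed, 40.7% from TPM and 41.7% after centring on the median gene, whose log2 difference was 0.29. The line and the library cannot be told apart here.

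NUPR1 had 1856 counts in the JJ012 control and 1 in the 143B control, a CPM ratio of 1535 with an interval from 275 to 60640. STC2 was the extreme in the other direction, 42.0-fold lower in JJ012 (37.5 to 47.1). ASNS was 8.001-fold lower in JJ012 (4.44 to 15.6) and CBS 7.55-fold lower (5.08 to 11.6), both from uncertain counts. DDIT4, PPP1R15B, PPP1R15A, KLHL24 and ATF4 were also lower in JJ012, between 2.55-fold and 4.16-fold by CPM. OMA1 was 4.84-fold higher in JJ012 (3.75 to 6.33) and CTH 4.62-fold (3.40 to 6.40). EIF2B1, EIF2B2, EIF2B3 and EIF2B4 were each higher in JJ012, between 2.79-fold and 3.48-fold, while EIF2B5 was 1.32-fold lower (1.201 to 1.444). EIF2B4, with 813 and 193 counts in the JJ012 and 143B controls, overlaps GTF3C2-AS2 on the other strand, with 1215 and 106. EIF2B1 overlaps GTF2H3 (791 and 309 counts) and DDX55 (562 and 554) on the other strand. The part of these overlaps was not tested. DDIT3 was 2.52-fold higher in JJ012 (2.24 to 2.85). With the length trend removed, the log2 differences of DDIT3 (1.29) and EIF2B3 (1.07) were 0.46 and 0.45, short of the threshold, and that of CHAC1 went from 0.59 to -0.34.

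Other genes of the pathway were taken from lists of genes that are not members, chosen with earlier results of these data known. Of 9 amino acid transporters regulated by ATF4, 8 were assessed in JJ012, of which 6 rose and none fell, with a median log2 fold change of 0.94. Those 6 are 75.0% of the assessed transporters, while 19.6% of all assessed genes rose and 18.6% fell. With the length trend removed, SLC38A2 missed the threshold (0.51) and SLC1A5 passed it (0.61). SLC7A11, the cystine importer, went from 1.13 to 10.35 FPKM, SLC7A1, a carrier of arginine and lysine, from 4.12 to 14.67 FPKM, SLC3A2, the heavy chain that pairs with SLC7A11 and SLC7A5, from 10.64 to 33.93 FPKM, and SLC7A5, the leucine carrier, from 9.22 to 19.75 FPKM. In 143B none of the 8 assessed transporters passed the threshold, beside 12.7% of all assessed genes, and the median was -0.02.

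Aminoacyl-tRNA synthetases load tRNA with amino acids, and all 12 cytosolic ones of the list had a log2 fold change above 0 in JJ012, and 4 rose, with a median of 0.53. The 4 that rose are 33.3% of the list, beside 19.6% of all assessed genes. Of all assessed genes, 50.4% were above 0, and 51.7% of the protein-coding ones. With the length trend removed, 10 of the 12 were above 0. YARS1 went from 8.90 to 23.58 FPKM, AARS1 from 21.72 to 52.73 FPKM, IARS1 from 6.62 to 14.94 FPKM and GARS1 from 12.82 to 25.28 FPKM. With the length trend removed, GARS1 missed the threshold (0.57), while SARS1 (0.65) and TARS1 (0.59) passed it. In 143B none passed, beside 12.7% of all assessed genes, and the median was 0.01. There 6 of the 12 were above 0, beside 56.0% of the assessed protein-coding genes. Of 6 serine and one-carbon enzymes, PSAT1 and ALDH1L2 rose in JJ012 and PSPH fell, and none passed in 143B. Thus 3 of the 6 passed in JJ012, beside 38.2% of all assessed genes there, and 0 of the 6 in 143B, beside 12.7%. With the length trend removed, ALDH1L2 missed the threshold (0.40) and the median of the list went from 0.37 to 0.06. PHGDH, the first enzyme of serine synthesis, had 1.94 and 2.49 FPKM in JJ012 and 47.83 and 34.47 FPKM in 143B.

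Among 15 further targets of ATF4 and CHOP, 6 of 14 assessed genes rose in JJ012 and 3 fell, which is 64.3% against 38.2% of all assessed genes. GDF15, a secreted stress cytokine, went from 13.81 to 188.41 FPKM, GADD45A, a growth arrest gene, from 61.36 to 136.28 FPKM, TNFRSF10B, the death receptor DR5, from 9.79 to 22.00 FPKM, and NIBAN1 from 3.40 to 8.14 FPKM. GPT2, ERO1A and VEGFA fell. SQSTM1, which also rose, missed the threshold with the length trend removed (0.42). In 143B, GADD45A rose from 27.10 to 58.71 FPKM and HMOX1 fell from 14.79 to 8.44 FPKM, and the other 10 of the 12 assessed did not pass. Thus 16.7% passed there, near the 12.7% of all assessed genes. A list of 9 further genes around eIF2 held its gamma subunit, the kinase PKR and regulators of the kinases, and none passed among the 8 assessed in JJ012 and the 9 assessed in 143B. Of all assessed genes, 38.2% and 12.7% passed in those lines.

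The ATF6 and XBP1 branches of the endoplasmic reticulum stress response, which raise chaperones, were followed in 16 genes. In JJ012, 3 rose and 4 fell, which is 43.8% against 38.2% of all assessed genes, and the median was 0.09. CRELD2 went from 17.96 to 6.56 FPKM, and CALR from 854.79 to 466.12 FPKM, while ERN1, which encodes the IRE1 sensor, went from 0.79 to 3.40 FPKM and SEL1L, of the ubiquitin ligase for misfolded proteins, from 26.96 to 47.84 FPKM. SEL1L missed the threshold with the length trend removed (0.54), and so did SDF2L1 (-0.44), which had fallen. HSPA5, the main chaperone of this compartment, had 378.00 and 437.45 FPKM in JJ012 and 221.99 and 265.59 FPKM in 143B, with log2 fold changes of 0.21 and 0.26. In 143B, MANF rose from 42.37 to 70.57 FPKM. There 13 of the 16 were above 0, beside 56.0% of the assessed protein-coding genes, and the median was 0.22. MANF alone passed there, 6.25% of the list against 12.7% of all assessed genes.

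**Figure D4:**
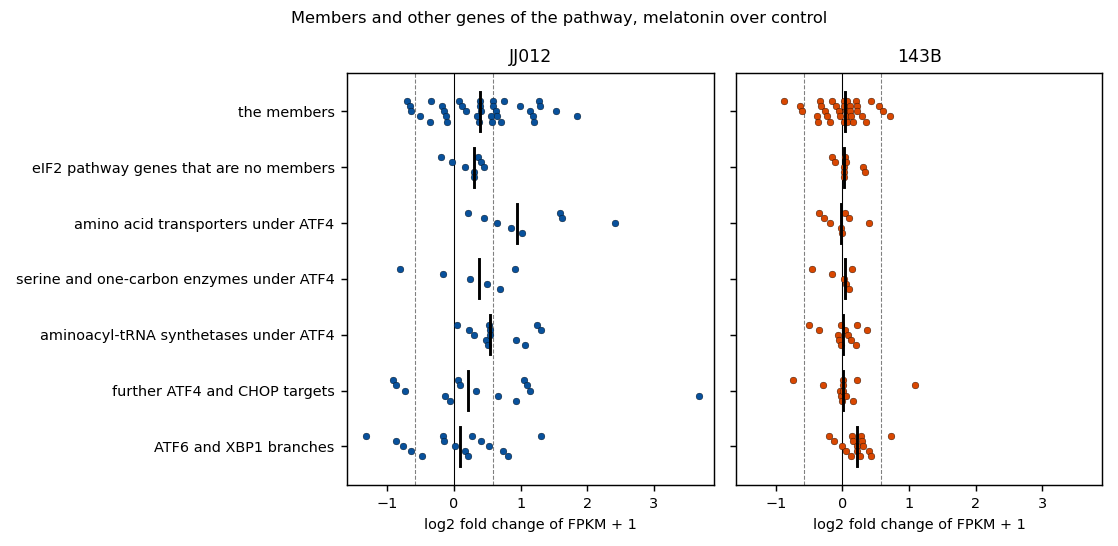
Each point is an assessed gene with its log2 fold change of FPKM + 1, melatonin over control, in JJ012 (left) and 143B (right), by list, with a bar at the median and dashed lines at 0.58 in either direction. Amino acid transporters have the highest median in JJ012 (0.94), against -0.02 in 143B, and GDF15 (3.68) is the point farthest to the right.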

How the data were processed

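Poly(A) RNA of 4 samples had been sequenced as paired ends. The deposited table holds raw counts and the authors' FPKM, which equalled counts over exonic length and column total (within 0.006) for all 61806 genes. The submitters' processing notes name cutadapt 1.9.1, HISAT2 2.2.1, HTSeq 0.6.1, DESeq2 and hg38; annotation release and strand setting are not given in the sources used here. Other columns are annotation.

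Samples were grouped by title, with 1 library per condition, so no count model was fitted. Fold changes used a pseudocount and filter of 1 FPKM and a threshold of 0.58, with Clopper-Pearson intervals at 95%, which cover counting error only. Gene types came from GENCODE 29, and the length trend was a running median over 501 genes. Members, lists and motifs were chosen with earlier results of these data known. Members were named by role, and of each other list at most 4 genes per line past the threshold by size of change. PHGDH, GPT2, ERO1A, VEGFA, HSPA5, SARS1, TARS1, SLC38A2, SLC1A5, SQSTM1 and SDF2L1 were named after their values were seen. Procedures were tested on simulated data. Alternatives varied pseudocount, filter, threshold, scaling, centring, length trend and gene type. The software was Python 3.11.15 with pandas 2.3.3, numpy 2.4.6, matplotlib 3.10.9 and scipy 1.17.1.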

Additional observations from a re-analysis of the deposited data

Results flagged for a closer look

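DDIT3, CEBPB and ATF3 passed the threshold in opposite directions in the 2 cell lines, which is why they are listed here, and the difference between the lines was not tested, since each rests on 1 library per condition. The log2 fold change in JJ012 less that in 143B was 2.49 for DDIT3 (1.85 and -0.64), 1.51 for CEBPB (0.63 and -0.88) and 1.31 for ATF3 (0.71 and -0.60).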

How the results depend on the processing

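In JJ012, between 14 and 20 members passed the threshold of 0.58 with a pseudocount of 0.1 FPKM (20), no filter (18), at least 5 FPKM (14), CPM (19), centring on the median gene (16), the length trend removed (16) and protein-coding genes alone (17), against 17 as reported. From TPM, which moved the median gene by 0.21 on the log2 scale, 23 passed, 22 higher and 1 lower (95.7% higher, against 82.4% as reported), with a median of 0.76. At a threshold of 1, 7 passed, 7 higher and 0 lower. With the length trend removed, EIF2AK3, EIF2S1, EIF4EBP1 and PPP1R15B no longer passed, and ATF4, CHAC1 and DDIT4 did. Under that setting 14 of the 34 members in JJ012 were higher and 2 lower, beside 14.1% and 15.1% of the protein-coding genes. In 143B, where 5 passed as reported, 4 were higher with a pseudocount of 0.1, from TPM and from CPM (57.1% of those that passed, against 40.0%), 1 was higher after centring and with the length trend removed (25.0%), 2 passed with 0 higher at 5 FPKM (0.0%), and 0 passed, 0 higher and 0 lower, at a threshold of 1. With the length trend removed, 2.51% of the protein-coding genes in 143B were higher and 3.13% lower. For most other settings the share of all genes is not given here, so these counts describe the members alone. The causes of the shifts in these counts were not tested. DDIT3 and CEBPB kept opposite directions past 0.58 in every alternative at that threshold, and ATF3 in all but the filter of 5 FPKM, which it did not reach. No member that passed in JJ012 or 143B changed sign, whereas between the controls CHAC1 went from 0.59 to -0.34 with the length trend removed. Among the controls, between 17 and 27 members passed, against 23 as reported. Depth limits the members with few counts, such as ASNS, CHAC1 and SLC6A9. No paired analysis was possible because each condition had 1 library.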

Other observations

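ASNSP1, an unprocessed pseudogene copy of ASNS singled out after its values were seen, had 39 counts in the JJ012 control, 210 after melatonin and 0 counts in both 143B libraries, so that in JJ012 it held more counts than ASNS itself (13 and 60), and the counting could have split reads between them. EIF2S2P4, a processed pseudogene of EIF2S2, had 214, 238, 286 and 317 counts in the JJ012 control, treated JJ012, the 143B control and treated 143B, beside 3959, 3790, 5238 and 5772 for EIF2S2.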
